A study of Mus musculus with 6 samples.

Results

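The 47 genes described here were listed under homologous recombination and DNA damage signalling, and include Ssbp1, whose protein is mitochondrial. They were taken by gene symbol from the 19489 genes of the deposited table, and not by a threshold on any measured value, although earlier results of these data were known when the list was drawn up. By role they formed 5 groups: 11 BRCA and recombinase mediators, 8 genes of end resection, helicases and nucleases, 6 genes of single-stranded DNA binding and repair synthesis, 10 Fanconi anaemia genes and 12 checkpoint signalling genes.

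mRNA was measured in 6 libraries of mouse embryonic stem cells (ESCs) kept in serum and LIF, 3 from control (Con) ESCs labelled wild type and 3 from Dppa3-overexpressing (OE) ESCs. Dppa3 is a maternal factor that keeps the methylation maintenance machinery away from DNA. OE cells carried the Dppa3 coding sequence under the CAG promoter, Con cells carried the empty vector, and both were selected in puromycin. The methods describe transient lines as well as stable lines grown from picked colonies, in J1 and D3 ESCs, and do not say which of these gave the RNA. The libraries of each group were titled as replicates 1, 2 and 3. The third of each also bore the label D7, which no source explains. The strain labels ran from 129S2/SvPas for Con-1 to 129S7/SvPas for OE-D7, with a different name for each library. These names rise with the order of the samples and may be a spreadsheet fill, so no strain is assigned here. The methods speak in general of independent experiments for each condition, but neither they nor the labels tie these libraries to separate cultures, so p-values measure the spread between these libraries, which may be technical.

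Each library held between 17408954 and 18176939 estimated counts. Dppa3 itself was at 6.09, 3.89 and 26.22 FPKM in Con-1, Con-2 and Con-D7 and at 278.79, 278.82 and 130.96 FPKM in OE-1, OE-2 and OE-D7, so each OE library was above every Con library. FPKM scales the fragments of a gene by transcript length and by library depth. The 12 ESC identity genes, among them Pou5f1, Sox2 and Nanog, were all present, with a summed level of 3855.8 to 4940.1 FPKM. Libraries of the same number deviated together from the mean of their genotype (r across genes of 0.898, 0.776 and 0.901 for pairs 1, 2 and D7). Libraries of different numbers correlated at -0.0516 or below. Deviations cancel out within a genotype, so these negative values follow on average from the positive ones and add no further evidence. Because libraries of the same number went together, values from a fit with the pair number as a block are given beside the counts.

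Homologous recombination mends a broken chromosome by copying an intact DNA molecule, usually the sister chromatid. Nucleases first trim the broken end to a single strand, replication protein A coats that strand, and BRCA2 with its partners then prepares it for the search for a matching sequence. The Fanconi anaemia proteins unhook crosslinks between the strands and pass the lesion on to recombination, and the kinases ATM and ATR signal breaks and stalled forks to the cell cycle. ESCs spend most of their cycle in S phase, when sister chromatids are at hand, and are known for high levels of these proteins.

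All 47 genes were expressed in every library. Their mean level over the 6 libraries had a median of 16.63 FPKM, against 9.51 FPKM for the 13809 genes kept for testing, and 35 of the 47 had a mean above 10 FPKM. The median gene's highest library was 1.51 times its lowest. The most abundant was H2afx, which encodes the histone H2A.X that is phosphorylated around breaks, with a mean of 185.83 FPKM. The least abundant was Fancf, an adaptor of the Fanconi core complex, with a mean of 2.35 FPKM and only 45 estimated counts in its lowest library, so it was also the gene measured with the fewest counts.

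**Figure D1:**
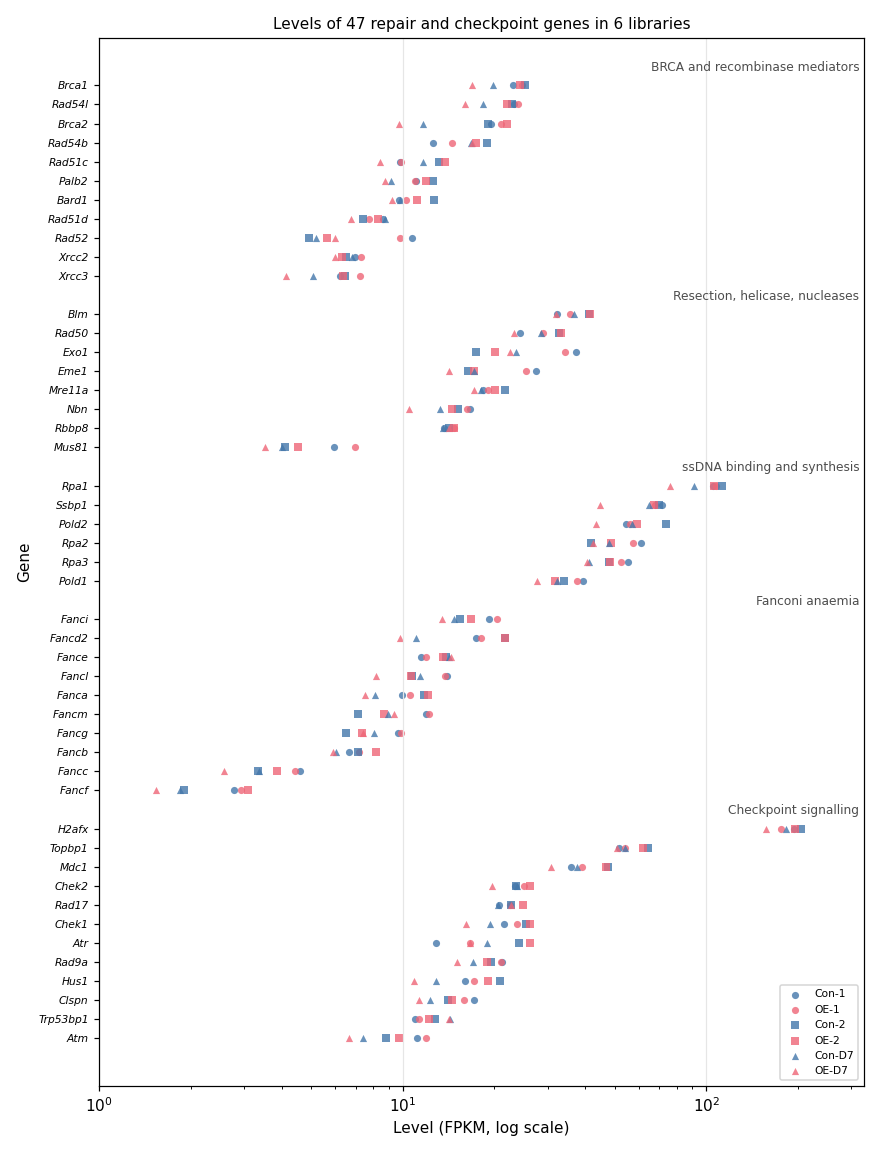
Level of each of the 47 genes in FPKM (horizontal axis, log scale) in the 6 libraries, grouped by role and ordered by mean level; blue marks Con and red OE, with circles for pair 1, squares for pair 2 and triangles for the D7 pair. Most genes lie within a narrow band over all libraries, the triangles lie towards the left in most rows, and circles and squares stand apart for Exo1, Rad52, Eme1 and Atr.

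The BRCA and recombinase mediators had a median level of 10.73 FPKM. Brca1, the ubiquitin ligase subunit that promotes resection and recruits Palb2, led the group, at 23.14, 25.27 and 19.83 FPKM in Con-1, Con-2 and Con-D7 and 24.81, 24.28 and 16.94 FPKM in OE-1, OE-2 and OE-D7. Its partner Bard1 had a mean of 10.46 FPKM. Palb2, which joins BRCA1 to BRCA2, had a mean of 10.73 FPKM. Brca2, the central mediator of strand exchange, had a mean of 17.2 FPKM. Among the paralog genes of this group, which assist strand exchange, means ran from Rad51c at 11.11 FPKM through Rad51d at 7.91 and Xrcc2 at 6.64 to Xrcc3 at 5.91 FPKM, the lowest of the group. Xrcc3 was at 6.23, 6.46 and 5.07 FPKM in the Con libraries 1, 2 and D7 and at 7.21, 6.34 and 4.13 FPKM in the OE libraries. Rad52, an annealing protein, had a mean of 7.04 FPKM. The motor proteins Rad54l and Rad54b, which remodel DNA during strand exchange, had means of 21.12 and 16.2 FPKM. Rad54b shares 2068 of its 5292 exonic bases with Fsbp on the same strand, so its estimate depends on how reads were split between these genes.

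Among the resection genes and nucleases, the median level was 19.37 FPKM. Blm, the helicase that unwinds ends and dissolves joint molecules, was the highest at 32.3, 41.17 and 36.68 FPKM in Con-1, Con-2 and Con-D7 and 35.6, 41.4 and 31.88 FPKM in OE-1, OE-2 and OE-D7. The MRN complex, which senses and begins to trim ends, had Rad50 at 28.52, Mre11a at 19.09 and Nbn at 14.4 FPKM. Rbbp8, which encodes the MRN cofactor CtIP, varied least of the 47 over the libraries, between 13.61 and 14.8 FPKM. The exonuclease Exo1 had a mean of 25.9 FPKM. Eme1 and Mus81, the subunits of one structure-specific endonuclease, had means of 19.64 and 4.83 FPKM, and Mus81 was the lowest of the group with 3.51 to 6.94 FPKM.

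The genes of single-stranded DNA binding and synthesis were the most abundant group, with a median of 53.55 FPKM. Replication protein A had its subunits Rpa1, Rpa2 and Rpa3 at means of 99.82, 49.83 and 47.44 FPKM. Rpa1 was at 105.47, 112.6 and 91.49 FPKM in the Con libraries 1, 2 and D7 and at 107.63, 106.0 and 75.74 FPKM in the OE libraries. Ssbp1, which encodes the mitochondrial single-stranded DNA binding protein, had a mean of 64.42 FPKM. The polymerase delta subunits Pold2 and Pold1 had means of 57.27 and 33.77 FPKM, and Pold1, the lowest of the group, ranged from 27.75 to 39.3 FPKM.

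The Fanconi genes were the least abundant group, with a median of 9.86 FPKM and 4 of 10 above 10 FPKM. The highest were Fanci and Fancd2, whose products form the complex that is ubiquitinated at crosslinks, with means of 16.67 and 16.63 FPKM. Fanci was at 19.22, 15.45 and 14.74 FPKM in the Con libraries 1, 2 and D7 and at 20.4, 16.75 and 13.48 FPKM in the OE libraries. The ubiquitin ligase subunit Fancl had a mean of 11.44 FPKM. Among the core complex genes, means ran from 13.26 FPKM for Fance and 10 for Fanca through 9.71 for Fancm, the translocase that anchors the complex, 8.12 for Fancg and 6.84 for the X-linked Fancb to 3.69 for Fancc. Fancf was at 2.78, 1.9 and 1.84 FPKM in the Con libraries and 2.94, 3.08 and 1.54 FPKM in the OE libraries.

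The checkpoint genes had a median of 20.72 FPKM. H2afx was at 195.0, 205.4 and 183.87 FPKM in Con-1, Con-2 and Con-D7 and 176.74, 196.65 and 157.31 FPKM in OE-1, OE-2 and OE-D7. Topbp1, the activator of ATR, followed with a mean of 56.14 FPKM, and Mdc1, the scaffold that reads phosphorylated H2A.X, with 39.6 FPKM. The kinases that carry the signal to the cell cycle, Chek2 and Chek1, had means of 23.66 and 22.15 FPKM. Chek1 was at 21.58, 25.53 and 19.46 FPKM in the Con libraries and 23.85, 26.25 and 16.22 FPKM in the OE libraries. The clamp loader Rad17 and the clamp subunits Rad9a and Hus1 had means of 22.36, 18.83 and 16.19 FPKM. Clspn, the mediator between ATR and CHK1, had a mean of 14.22 FPKM and Trp53bp1, which limits resection, 12.63 FPKM. Atr, the kinase of stalled forks, had a mean of 19.29 FPKM and Atm, the kinase of breaks, 9.26 FPKM. Atm was at 11.14, 8.78 and 7.37 FPKM in the Con libraries and 11.92, 9.72 and 6.64 FPKM in the OE libraries, so in every library it was below Atr.

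Promoter sequences are shown for 4 of the genes that were lower in the D7 libraries in a fit described further on. These 4 hold the letters that were searched for. Pold1 and Eme1 were also lower in that fit and hold such letters, but are not printed. RefSeq windows on GRCm38.p6, each reaching from 250 bases before to 50 bases after 1 start of transcription, which need not be the outermost start of the gene, were at hand for 37 of the 47 genes. Capitals mark the E2F letters (TTTCCCGC, TTTGGCGC, TTTGCCGC or TTTCGCGC) in Brca2, Clspn and Mdc1 and the CHR letters (TTTGAA) in Hus1, on either strand. E2F factors act on S phase genes through the former, and repressors of G2 and M genes act through the latter. The windows are chr5:150522371-150522670 on the plus strand for Brca2, chr4:126556730-126557029 on the plus strand for Clspn, chr17:35841248-35841547 on the plus strand for Mdc1 and chr11:9011142-9011441 on the minus strand for Hus1, and all are printed 5′ to 3′ in the direction of the gene.
Brca2: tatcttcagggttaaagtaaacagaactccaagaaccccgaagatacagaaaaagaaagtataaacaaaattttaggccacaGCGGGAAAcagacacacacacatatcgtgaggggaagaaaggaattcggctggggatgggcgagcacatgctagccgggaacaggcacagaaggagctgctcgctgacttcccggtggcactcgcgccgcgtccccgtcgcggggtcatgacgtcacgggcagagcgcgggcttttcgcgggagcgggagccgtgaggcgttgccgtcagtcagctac
Clspn: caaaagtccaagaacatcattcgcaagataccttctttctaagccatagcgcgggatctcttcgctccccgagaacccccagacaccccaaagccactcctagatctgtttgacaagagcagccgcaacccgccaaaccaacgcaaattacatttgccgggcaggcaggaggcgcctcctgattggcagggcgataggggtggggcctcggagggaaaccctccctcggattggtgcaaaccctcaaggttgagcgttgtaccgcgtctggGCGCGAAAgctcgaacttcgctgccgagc
Mdc1: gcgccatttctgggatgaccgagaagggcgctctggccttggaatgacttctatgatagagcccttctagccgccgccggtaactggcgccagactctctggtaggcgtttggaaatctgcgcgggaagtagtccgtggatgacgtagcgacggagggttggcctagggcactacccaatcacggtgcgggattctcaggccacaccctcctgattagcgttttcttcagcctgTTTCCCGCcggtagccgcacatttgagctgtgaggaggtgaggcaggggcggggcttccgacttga
Hus1: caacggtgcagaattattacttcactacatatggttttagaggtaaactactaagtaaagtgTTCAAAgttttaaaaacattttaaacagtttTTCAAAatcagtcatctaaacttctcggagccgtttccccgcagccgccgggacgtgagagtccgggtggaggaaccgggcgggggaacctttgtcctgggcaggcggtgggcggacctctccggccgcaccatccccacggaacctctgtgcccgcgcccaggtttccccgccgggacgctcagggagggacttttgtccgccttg

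Relative to the start that each window uses, the E2F letters began at position -168 in Brca2 and at positions -16 in Mdc1 and 21 in Clspn. Over the windows, 9 of 37 genes (24.3%) held E2F letters, against 2.32% of all 27025 promoters of this length and 4.24% of the promoters of tested genes. The others were Pold1, Bard1, Rad51c, Chek2, Topbp1 and Fancg. CHR letters were in 3 of 37 windows (8.11%), against 18.1% of all promoters and 11.8% of those of tested genes. CCAAT was in 20 windows (54.1%, against 37.9% and 39.8%), and the ETS letters CCGGAAGT were in 4 (10.8%, against 4% and 7.91%). The windows were rich in CpG, with a median of 23 per window against 7 over all promoters and 20 over those of tested genes.

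The first comparison asked whether these genes differed in mRNA between Dppa3 OE and Con ESCs, since the study examined DNA damage and recombination pathways in OE cells. None of the 47 passed the test over libraries 1 and 2 of each group (edgeR quasi-likelihood F test, Benjamini-Hochberg adjusted p under 0.05). The background was 0% of 13494 genes without the pair block, with 58 genes higher and 4 lower where the p was left unadjusted at 0.05, none of them among the 47. With the block, 0.763% of genes were called higher and 0.126% lower, again none of the 47. Unadjusted, the block took 583 genes higher and 490 lower, with Atr alone among the 47 (log2 ratio 0.21, edgeR adjusted p = 0.499). DESeq2 called 2 genes without the block and 32 higher and 2 lower with it, none of them among the 47. In simulated data this fit recovered 2% of 2-fold and 52% of 4-fold changes without the block and 90% of 2-fold changes with it.

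The fold changes were centred near 0. The median log2 OE/Con ratio of the 47 genes was -0.01 and that of all genes -0.01, and 20 of 47 ratios lay above 0, against 47.4% of all genes. With library totals as the only scaling, 31 of 47 lay above 0, against 59.3% of all genes, and the median of all genes moved to 0.03. The group medians were -0.01 for the recombinase mediators, -0.003 for the resection genes, -0.10 for single-stranded DNA binding and synthesis, 0.02 for the Fanconi genes and -0.01 for the checkpoint genes. 

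The genes of smallest p in this comparison were H2afx, Pold2, Ssbp1, Brca2 and Fancf. H2afx had a mean of 200.2 ± 7.35 FPKM (SD, n = 2) in Con and 186.7 ± 14.08 FPKM in OE libraries 1 and 2, and its log2 ratio was -0.15 (standard error 0.12, edgeR adjusted p = 1.0). Both OE libraries were below their own Con library, but on the FPKM scale OE-2 at 196.65 was above Con-1 at 195.0, so the groups overlapped. Pold2 had 54.31 and 73.56 FPKM in Con-1 and Con-2 and 56.18 and 59.25 FPKM in OE-1 and OE-2, with a log2 ratio of -0.185 (standard error 0.175, edgeR adjusted p = 1.0). Con-2 was the library that stood apart for Pold2. Ssbp1 had 71.79 and 70.0 FPKM in Con and 68.04 and 67.11 FPKM in OE, so the OE libraries were below both Con libraries by a margin that did not pass the test (log2 ratio -0.12, standard error 0.14). Brca2 had 19.54 and 19.09 FPKM in Con and 21.06 and 22.04 FPKM in OE, and Fancf 2.78 and 1.9 FPKM in Con and 2.94 and 3.08 FPKM in OE. Their log2 ratios were 0.11 (standard error 0.13) and 0.31 (standard error 0.37), each with an edgeR adjusted p of 1.0. On the scale of counts normalised by TMM, both OE libraries lay above both Con libraries for Brca2, Fancb, Fancf and Rad17 and below both for Rpa1, Pold2, Ssbp1 and H2afx. These are 8.51% of the 47 in each direction, against 7.57% of all genes above and 8% below.

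Over all 3 pairs, with the D7 label as a term, again no gene of the 47 passed. The background of this fit with the pair block was 0.00724%, a single gene. At an unadjusted p under 0.05, 0 of the 47 were past without the block and 4 with it, all lower in OE. Over all 13809 genes, 125 were higher and 54 lower at that p without the block, and 607 and 573 with it. The 5 of smallest p without the block were H2afx (log2 ratio -0.19, standard error 0.09), Ssbp1 (-0.28, standard error 0.14), Pold2 (-0.27, standard error 0.13), Rpa1 (-0.15, standard error 0.10) and Pold1 (-0.17, standard error 0.14). Apart from H2afx, these belong to the group of single-stranded DNA binding and synthesis, whose 6 genes had log2 ratios of -0.28 to -0.08. Single libraries weighed on these values. Without Con-D7 the ratio was -0.12 for Ssbp1 and -0.07 for Rpa1, and without OE-D7 it was -0.13 and -0.08. For Pold1 it was -0.07 without Con-1 and -0.09 without OE-2.

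**Figure D2:**
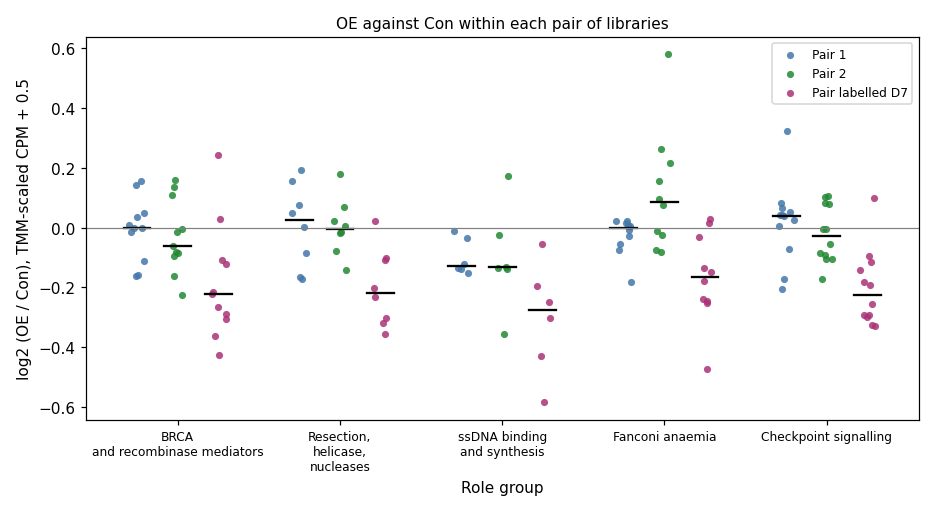
log2 ratio of OE to Con within each pair of libraries (vertical axis, TMM-scaled CPM plus 0.5) for the genes of each role group; each point is 1 gene and each bar a group median. Pairs 1 and 2 scatter around 0, whereas in the D7 pair only 6 of the 47 genes lie above 0.

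The pairs taken singly differed in how the genes lay. The OE library was the higher for 24 of 47 genes in pair 1 and for 18 in pair 2, with median log2 ratios of 0.002 and -0.014, against 48.1% and 47% of all genes. In the D7 pair the OE library was the higher for 6 genes (12.8%), with a median of -0.22 and a range of -0.58 to 0.24, against 50.5% of all genes and a median of 0.002. Each pair is 1 library against 1 library, so this difference has no replicate check. The test of whether the OE effect differed between the D7 pair and the others called none of the 47 and no other gene, and at an unadjusted p under 0.05 it took 47 genes in one direction and 22 in the other, none of the 47. In simulated data it recovered 0% of 2-fold differences, so it could not have shown ratios of this size.

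Within the D7 pair, the lowest ratios were those of Ssbp1 (-0.58), Fancl (-0.47), Pold2 (-0.43) and Rad51c (-0.42), and Rad52 was the highest at 0.24. All 6 genes of single-stranded DNA binding and synthesis were lower in OE-D7 than in Con-D7, with a median of -0.275. In the other groups 9 of 11 recombinase mediators, 7 of 8 resection genes, 8 of 10 Fanconi genes and 11 of 12 checkpoint genes were lower. The summed level of 20 S phase genes, such as the Mcm helicase subunits and Pcna, moved the same way in this pair, from 1666.8 FPKM in Con-D7 to 1393.9 in OE-D7. The marker sums for fibroblasts or feeders and for trophectoderm were also higher in OE-D7 than in Con-D7, as given with the D7 comparison. Their part in these ratios was not tested.

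Some genes had 1 sign in all 3 pairs. Rad17 (0.05, 0.08 and 0.10 in pairs 1, 2 and D7) and Rbbp8 (0.05, 0.01 and 0.02) were higher in OE each time, which is 2 of 47 against 14.5% of all genes. A further 15 were lower each time, against 16.5% of all genes, and 7 when the ratios were taken from FPKM plus 0.5. The 3 with the largest mean ratios were Ssbp1 (-0.12, -0.14 and -0.58), Pold2 (-0.01, -0.36 and -0.43) and Fancl (-0.08, -0.08 and -0.47). For each of the 3 the D7 pair contributed the largest value. In FPKM, Pold2 was slightly higher in OE-1 than in Con-1, so its sign in pair 1 depended on the scale.

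The next comparison set the D7 pair against the other libraries. In the D7 libraries 43 of the 47 genes were lower than in the other 4, with a median log2 ratio of -0.30. Over all genes the median was -0.03 and 47.7% lay above 0. Brca2, Fancd2 and Hus1 fell past the threshold and none rose (edgeR, genotype as a term). That is 6.38% of the 47 lower, against a background of 3.06% lower and 6.77% higher over all genes. With the pair number as a block, 23 of the 47 fell (48.9%, against 23.6% of all genes) and again none rose (against 25.6%). The label is carried by 1 library of each genotype, and with the block the spread between pairs does not enter the test. Those calls thus say that the D7 pair differed from the mean of the other pairs, not that a further D7 library would. Not every called gene had both D7 libraries below all others. Mdc1 was at 37.65 FPKM in Con-D7 and 35.76 FPKM in Con-1. Without the block none of the 47 was called when OE-1 or OE-2 was left out, 3 were called without Con-1 and 4 without Con-2. Over all genes 68, 58, 306 and 918 were lower without OE-1, OE-2, Con-1 and Con-2, against 422 with every library. Leaving out Con-D7 or OE-D7 kept a single D7 library, and the median log2 ratio of the 47 was then -0.39 and -0.20 respectively. With the block and 1 of the other 4 libraries left out, the count ran from 14 without OE-1 to 20 without Con-2. Over all genes 2513 and 2857 were lower in those fits. DESeq2 called 7 lower without the block and 20 with it, against 995 and 2565 of all 13809 genes.

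**Figure D3:**
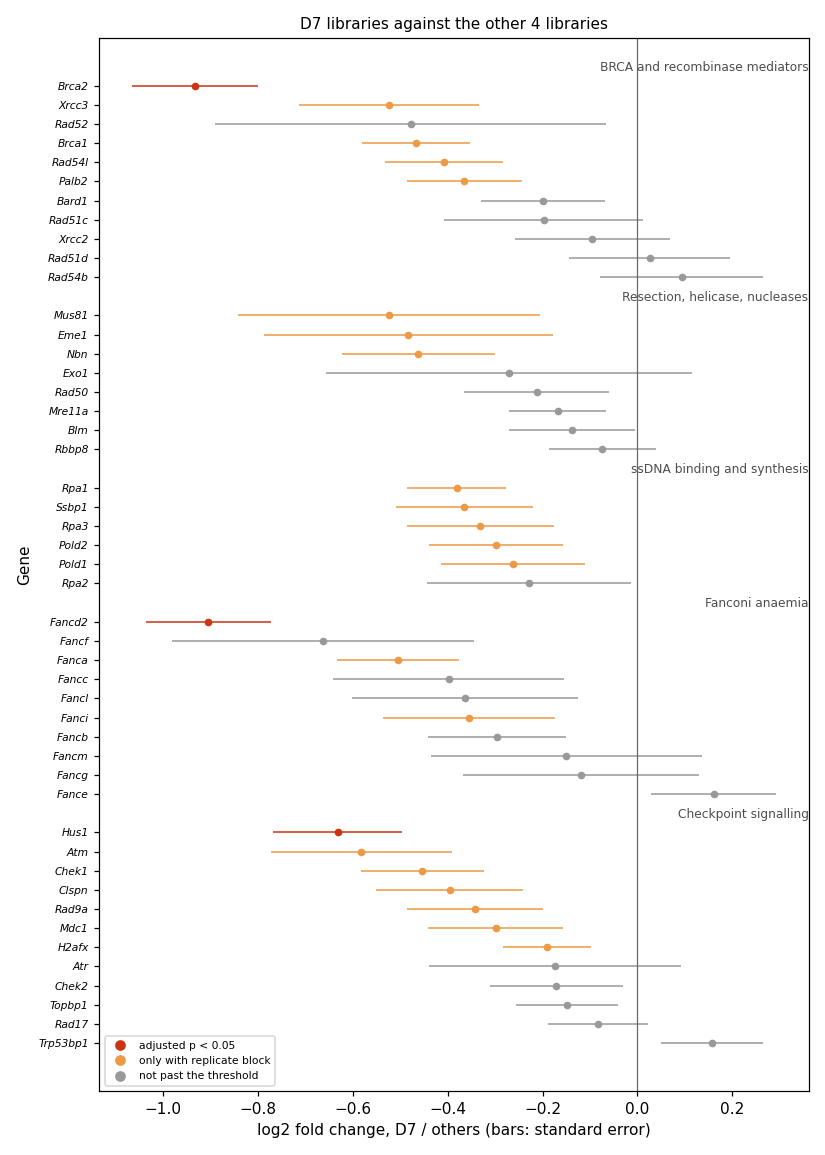
log2 ratio of the D7 libraries to the other 4 (horizontal axis) for the 47 genes by role group, with bars of 1 standard error; dark red passed the edgeR test, orange passed only with the pair block and grey did not pass. All but 4 genes lie left of 0, and Brca2, Fancd2 and Hus1 lie farthest from 0 for their standard errors.

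Brca2 was at 11.7 FPKM in Con-D7 and 9.74 in OE-D7, against 19.09 to 22.04 FPKM in the other 4 libraries. The Brca2 gene spans 150522297 to 150570147 on chromosome 5 in GRCm38.p6, so the window printed above lies inside its outermost bounds. Its log2 ratio was -0.93 (standard error 0.13, edgeR adjusted p = 0.0169, and 0.000373 with the block). Fancd2 was at 11.08 and 9.76 FPKM in the D7 libraries and at 17.44, 21.66, 18.07 and 21.78 FPKM in Con-1, Con-2, OE-1 and OE-2, a log2 ratio of -0.905 (standard error 0.13, edgeR adjusted p = 0.0178, and 0.000209 with the block). For both genes the highest D7 library was far below the lowest of the others. Hus1, a subunit of the checkpoint clamp, was at 12.89 and 10.93 FPKM against 15.98, 20.98, 17.17 and 19.16 FPKM (log2 ratio -0.63, standard error 0.14, edgeR adjusted p = 0.0454, and 0.00147 with the block), and with library totals as the only scaling its adjusted p was 0.0634. Its D7 values also lay below all others, by a smaller margin against Con-1. In the 3 genes OE-D7 was below Con-D7.

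A further 5 genes are given in full that passed only with the block. Atm was at 7.37 and 6.64 FPKM in Con-D7 and OE-D7 against 8.78 to 11.92 FPKM in the other 4 libraries (log2 ratio -0.58, standard error 0.19, edgeR adjusted p = 0.11, and 0.00143 with the block). Xrcc3, with 5.07 and 4.13 FPKM against 6.23 to 7.21, had a log2 ratio of -0.52 (edgeR adjusted p = 0.136, and 0.0181 with the block), and did not pass with the block without OE-1 (0.0654) or OE-D7 (0.16). Fanca, at 8.13 and 7.49 FPKM against 9.95 to 12.08, had a log2 ratio of -0.505 (edgeR adjusted p = 0.0652, and 0.00317 with the block). The D7 libraries lay below all others for each of these. For the nuclease genes Mus81 and Eme1 the 2 other pairs were themselves far apart. Mus81 was at 4.01 and 3.51 FPKM in the D7 libraries, 4.1 and 4.5 in pair 2 and 5.94 and 6.94 in pair 1, with a log2 ratio of -0.52 (edgeR adjusted p = 0.321, and 0.034 with the block). With the block Mus81 passed when Con-D7 was left out and not when any other library was (0.0617 to 0.284), nor with DESeq2 (0.119). Eme1 was at 17.17 and 14.24 FPKM in the D7 libraries, 16.4 and 17.12 in pair 2 and 27.47 and 25.47 in pair 1 (log2 ratio -0.48, edgeR adjusted p = 0.337, and 0.0101 with the block), so Con-D7 was above both libraries of pair 2. Without OE-D7 the blocked adjusted p of Eme1 was 0.0799. Eme1 shares 221 exonic bases with Lrrc59 on the opposite strand, which was at 114.06 FPKM, and whether the counting used strand is not stated.

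By role, and beside the 23.6% of all genes that were lower with the block, 5 of 6 genes of single-stranded DNA binding and synthesis fell with it, all but Rpa2, with a group median of -0.31. Of the checkpoint genes 7 of 12 fell, Hus1, Atm, Chek1 (-0.45), Clspn (-0.39), Rad9a (-0.34), Mdc1 (-0.29) and H2afx (-0.19). Atr was at 19.0 and 16.68 FPKM, within the range of the other libraries, and did not pass (-0.14). Of the recombinase mediators 5 of 11 fell, Brca2, Xrcc3, Brca1 (-0.47), Rad54l (-0.41) and Palb2 (-0.36), whereas the paralogs Rad51c, Rad51d and Xrcc2 had log2 ratios of -0.18, 0.03 and -0.09 and did not pass. Of the resection genes 3 of 8 fell, Mus81, Eme1 and Nbn (-0.46). Of the Fanconi genes 3 of 10 fell, Fancd2, Fanca and Fanci (-0.34), and Fancf had -0.66 with a standard error of 0.25 and did not pass. The 4 genes above 0 were Fance (0.16), Trp53bp1 (0.16), Rad54b (0.10) and Rad51d (0.03), none of which passed. Trp53bp1 and Fance were the only genes of the 47 with both D7 libraries above the other 4, which is 4.26% against 24.4% of all genes, and 23 had both below (48.9% against 23.3%). On the TMM scale these are not the same 23 as those called with the block. Eme1, Pold1, Pold2, Ssbp1, H2afx and Mdc1 were called but are not among them.

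Genes with E2F letters in the promoter window, of which Brca2, Clspn and Mdc1 are printed above, were counted apart. With the block 4 of the 9 with E2F letters were lower in the D7 libraries, with a median log2 ratio of -0.20, and 15 of the 28 without them, with a median of -0.365. Hus1, with CHR letters at positions -188 and -157 of its window, was among the latter.

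Markers of cell state moved with the D7 label too. The summed level of 14 fibroblast or feeder genes was 40.2 to 70.0 FPKM in the other 4 libraries and 214.8 and 456.2 FPKM in Con-D7 and OE-D7, with 8 of the 12 tested genes higher (edgeR; with the block 10 higher and 1 lower) and Lum and Dcn under 1 FPKM in every library. The sum of 9 trophectoderm genes was 40.9 to 72.8 FPKM against 675.6 and 1192.9 FPKM, with 5 of 8 higher (7 with the block) and Elf5 under 1 FPKM throughout. Krt18, a keratin, was at 318.42 and 579.62 FPKM in Con-D7 and OE-D7 and at most 20.62 FPKM elsewhere. The sum of 9 primitive endoderm genes was 166.7 to 175.1 FPKM against 144.1 and 231.9 FPKM, with 3 of 6 higher and 1 lower (4 and 1 with the block), and Gata6, Sox17 and Foxa2 under 1 FPKM. The 10 primed and early lineage genes summed to 82.0 to 108.3 FPKM against 131.3 and 82.4 FPKM, with 2 of 8 higher (5 higher and 1 lower with the block) and Pax6 and Sox1 under 1 FPKM. Of the 12 ESC identity genes 5 fell, and with the block 10 fell and 1 rose, with a median log2 ratio of -0.80 without the block. Their sum was 4312.4 to 4940.1 FPKM against 4032.8 and 3855.8 FPKM. That sum includes Dppa5a, the 1 that rose, at 1238.34 to 1701.12 FPKM against 2083.11 and 2267.56 FPKM. Pou5f1 went from 575.03 to 682.98 FPKM in the other libraries to 383.78 and 311.64 FPKM. Few genes set such sums, as Sparc did in the primitive endoderm list at 105.07 to 161.81 FPKM. In bulk RNA, fewer cells of a type and less RNA per cell cannot be told apart, and the part of these markers in the fall of the repair genes was not tested.

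The cell cycle lists were read beside the 47 genes because many repair genes are transcribed with S phase. With the block 17 of 20 S phase genes fell in the D7 libraries (1 without it), with a median log2 ratio of -0.40, and their sum was 1850.5 to 2325.5 FPKM in the other 4 libraries against 1666.8 and 1393.9 FPKM. Of 20 G2 and M genes 6 fell and 2 rose with the block (none without it), with a median of -0.08. Their part in the result was not tested.

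Other genes of the same pathways were counted in the same way. With the block 11 of 25 further recombination genes fell and 1 rose, 3 of 9 further Fanconi genes fell, 13 of 23 further checkpoint genes fell and 1 rose, and 4 of 9 genes of non-homologous end joining fell. Without the block the counts lower were 1, 0, 1 and 1. Dna2, a resection nuclease, passed in both fits, at 11.72 and 9.75 FPKM against 17.64 to 22.79 FPKM (log2 ratio -0.92, edgeR adjusted p = 0.0477). Babam2, a subunit of a BRCA1 complex, and Xrcc5, which encodes the Ku80 end-binding protein, also passed in both, with log2 ratios of -0.61 and -0.74 (edgeR adjusted p = 0.0423 and 0.0261). The genes that rose with the block were Sem1, a small BRCA2 partner and proteasome subunit (0.33), and Wee1, the kinase that restrains CDK1 (0.31). These 5 genes and Krt18 were chosen after their values were seen.

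**Figure D4:**
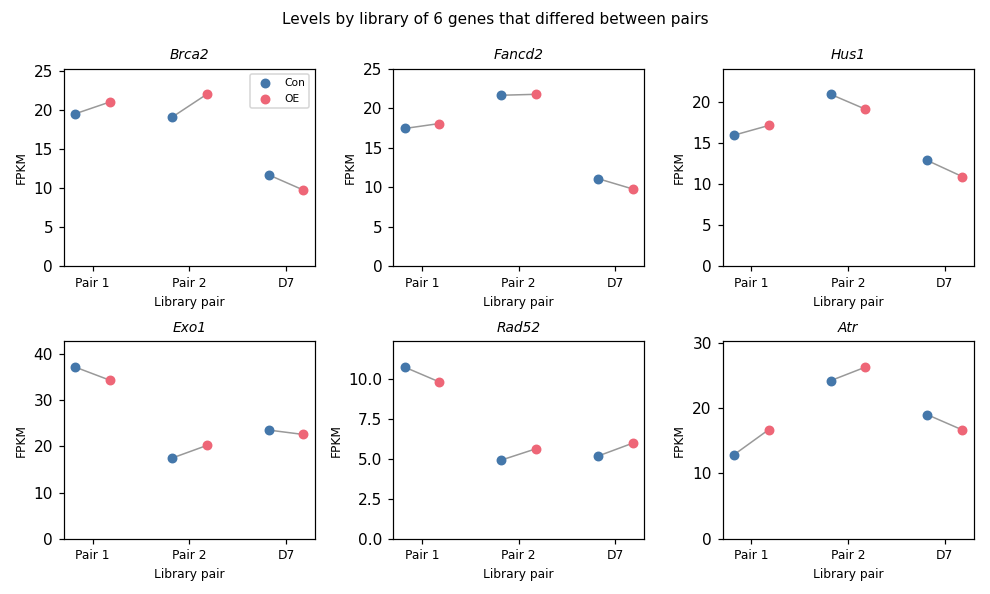
FPKM (vertical axes, from 0) in the 6 libraries for 6 genes, with each Con library (blue) joined to the OE library (red) of its pair. Brca2, Fancd2 and Hus1 are lowest in the D7 pair, Exo1 and Rad52 are highest in pair 1, and Atr is highest in pair 2.

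The last comparison set both libraries numbered 2 against both numbered 1. With genotype as a term, 6 of the 47 genes were higher in replicate 2 (12.8%, against 26% of all genes) and 12 were lower (25.5%, against 25.4%) by the edgeR test. No source states what the replicate numbers mark, so this describes a difference between pairs of libraries. The split moved with the scaling. With library totals alone 12 were higher and 11 lower, as the median log2 ratio of all genes went from 0.02 to 0.12. Over all 13494 genes 4466 were higher and 2596 lower in that fit. Without the filter on low values 2 were higher and 12 lower, against 3140 and 3469 of 18825 genes. DESeq2 called 1 higher and 9 lower, against 1576 and 2032 of 13494 genes.

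**Figure D5:**
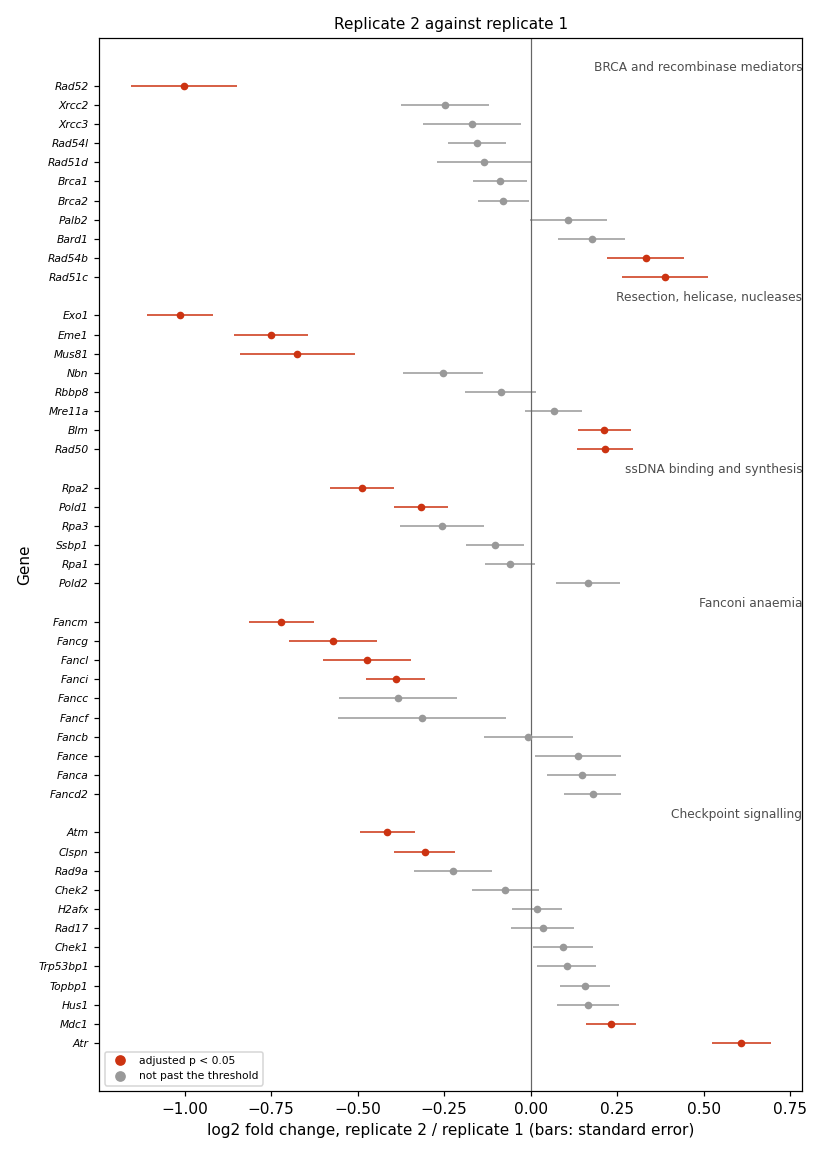
log2 ratio of replicate 2 to replicate 1 (horizontal axis) for the 47 genes by role group, with bars of 1 standard error; dark red passed the edgeR test and grey did not. Exo1 and Rad52 lie farthest to the left, and Atr is the highest at 0.61.

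Exo1 and Rad52 had the largest differences. Exo1 was at 37.21 and 34.35 FPKM in Con-1 and OE-1 and at 17.47 and 20.21 FPKM in Con-2 and OE-2, a log2 ratio of -1.01 (standard error 0.09, edgeR adjusted p = 5.25e-07). The D7 pair lay between, at 23.56 and 22.6 FPKM. Rad52 was at 10.74 and 9.81 FPKM in pair 1 and at 4.92 and 5.63 FPKM in pair 2 (log2 ratio -1.001, standard error 0.15, edgeR adjusted p = 4.71e-05), and its D7 values of 5.17 and 5.98 FPKM were near those of pair 2. For both genes the libraries of a pair were close to each other whatever their genotype.

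The other genes lower in replicate 2 were Eme1 (-0.75), Fancm (-0.72), Mus81 (-0.675), Fancg (-0.57), Rpa2 (-0.49), Fancl (-0.47), Atm (-0.41), Fanci (-0.39), Pold1 (-0.32) and Clspn (-0.31). Fancm was at 11.94 and 12.22 FPKM in Con-1 and OE-1 and at 7.12 and 8.67 FPKM in Con-2 and OE-2. Fancg was at 9.63 and 9.84 FPKM in pair 1 and 6.48 and 7.34 FPKM in pair 2. Fancl was at 13.99 and 13.75 FPKM in pair 1 and 10.75 and 10.62 FPKM in pair 2. In each of these both libraries of pair 2 were below both of pair 1. The test used the same libraries, so this adds nothing to it. Rpa2, at 61.01 and 57.39 FPKM in pair 1, was at 41.84 and 48.65 FPKM in pair 2, while Rpa1 and Rpa3, its partners in the trimer, did not pass (log2 ratios -0.06 and -0.26). Fancl shares 462 exonic bases with Vrk2 and Fanci 665 with Polg, on the opposite strand.

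Atr was the highest in replicate 2 relative to replicate 1. It was at 12.86 and 16.71 FPKM in Con-1 and OE-1 and at 24.21 and 26.29 FPKM in Con-2 and OE-2, a log2 ratio of 0.61 (standard error 0.08, edgeR adjusted p = 1.95e-05), with 19.0 and 16.68 FPKM in the D7 pair. Atr and Atm thus differed in opposite directions between the pairs. Rad51c was at 9.78 and 9.9 FPKM in pair 1 and 13.19 and 13.79 FPKM in pair 2 (log2 ratio 0.39), and Rad54b at 12.57 and 14.53 FPKM against 18.94 and 17.47 FPKM (0.33). Mdc1 was at 35.76 and 38.99 FPKM against 47.61 and 46.81 FPKM (0.23). Rad50 was at 24.33 and 29.08 FPKM against 32.66 and 33.32 FPKM (0.21), and Blm at 32.3 and 35.6 FPKM against 41.17 and 41.4 FPKM (0.21). In each of these 5 genes both libraries of pair 2 were above both of pair 1. That adds nothing to the test, which used the same libraries, and with DESeq2 only Atr was called higher.

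By role, 4 of 10 Fanconi genes were lower in replicate 2 and none higher, with a median of -0.35, and 2 of 6 genes of single-stranded DNA binding and synthesis were lower. The other groups were mixed, with 2 higher and 3 lower among 8 resection genes, 2 and 1 among 11 recombinase mediators, and 2 and 2 among 12 checkpoint genes. Brca1, Brca2, Chek1 and H2afx did not pass, with log2 ratios of -0.09, -0.08, 0.09 and 0.02. Of 9 further Fanconi genes 6 were lower and 1 higher, of 25 further recombination genes 11 were lower and 3 higher, and of 23 further checkpoint genes 11 were lower and 3 higher. Of 9 end joining genes 3 were lower. Of the 20 S phase genes 14 were lower and none higher, with a median of -0.37, and of the 20 G2 and M genes 8 were lower and 3 higher. The fibroblast or feeder sum was 40.2 and 46.7 FPKM in pair 1 and 70.0 and 62.9 FPKM in pair 2, and the trophectoderm sum 40.9 and 50.3 FPKM against 72.8 and 63.7 FPKM, with 4 of 8 fibroblast genes higher and 1 lower (Acta2) and 4 of 6 trophectoderm genes higher. Of the 12 ESC identity genes 6 were lower and 2 higher. Their part in the result was not tested.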

How the data were processed

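mRNA was measured in 6 libraries of mouse ESCs. The authors extracted total RNA with TRIzol, had it sequenced on BGISEQ-500, and quantified genes with RSEM after Bowtie2 mapping to mm10, whereas HISAT and GRCm38.p6 stand in the submitters' processing notes, without versions. The authors deposited estimated counts per gene, not normalized, and FPKM values, which are scaled by gene length and library depth. Count columns for D7 carry the heading of an average but were used as counts of 1 library each, and 0 columns of other samples were met.

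Counts were rounded and tested with edgeR 4.0.16 in R 4.3.3 (TMM, quasi-likelihood F test, Benjamini-Hochberg over all genes kept, adjusted p under 0.05) on genes whose FPKM averaged 0.5 or more, 13494 genes for 4 libraries and 13809 for 6, which kept all 47. DESeq2 1.42.0 was an alternative. The main fits had no pair block, as the study's methods have none. Pairing was checked on 12565 genes averaging 1 FPKM or more, and every pair of the same number correlated at 0.776 or above, so fits with the block were added. In simulated data, 1.5-fold changes were recovered in 0% of genes for OE against Con (70% with the block), 2% for D7 and 64% between replicates. Within-pair ratios used TMM-scaled CPM plus 0.5.

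The genes, their role groups and all other lists were chosen with earlier results of these data known. Genes are named with values in a comparison where they passed with or without the block, at most 8 in each direction by size, or where none passed, the 5 of smallest p. The highest and lowest gene of each role group, H2afx, Atm, Atr, Brca1, Brca2 and Chek1, and genes of the same sign in all 3 pairs were added. With 2 libraries against 2, an exact permutation test of a single gene cannot go below p = 0.333, so none was used.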

Additional observations from a re-analysis of the deposited data

Results flagged for a closer look

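For 8 of the 47 genes the log2 OE/Con ratio in the D7 pair had the opposite sign to both other pairs, and this difference was not shown by a test: the test of a difference in the OE effect called none of the 47, and it recovered 0% of 2-fold differences in simulated data. In all 8 the D7 pair was negative and pairs 1 and 2 were positive. Over all genes kept, 3092 (22.4%) had such a pattern in either direction, against 17% of the 47. The D7 ratio was -0.29 for Brca2 (0.05 and 0.16 in pairs 1 and 2), -0.202 for Mus81 (0.16 and 0.07), -0.03 for Fancb (0.02 and 0.22) and -0.244 for Fancf (0.02 and 0.58). It was -0.149 for Fanci (0.01 and 0.08), -0.182 for Atm (0.04 and 0.10), -0.292 for Atr (0.32 and 0.08) and -0.33 for Chek2 (0.03 and 0.11). Each ratio is 1 library against 1 library, and that of Fancf rests on few counts, with 45 estimated counts in the lowest library of Fancf.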

How the results depend on the processing

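No fitted log2 ratio changed sign under the alternatives run for the genes picked in each comparison by size or smallest p. Others of the 47 did change sign. With library totals the number above 0 went from 20 to 31 for OE against Con and from 19 to 25 for replicate 2 against 1. Within single pairs the sign did depend on the scale for some genes, with Pold2 and Rpa1 in pair 1 among them. With library totals the median of the 47 turned from -0.01 to 0.03 for OE against Con and from -0.09 to 0.01 for replicate 2 against 1. For OE against Con, over 4 or 6 libraries, 0 of the 47 genes passed under every alternative, the replicate block, DESeq2, library totals, no filter and each library left out included. The count lower in the D7 libraries was 3, and 23 with the replicate block. It was 7 with DESeq2, 20 with DESeq2 and the block, and 21 with library totals and the block. Over all 13809 genes those fits called 995, 2565 and 3165 lower. The count among the 47 ran from 0 to 4 when a library was left out without the block. With the block and 1 library left out it was 17 without Con-1, 20 without Con-2, 27 without Con-D7, 14 without OE-1, 15 without OE-2 and 11 without OE-D7. The fits that join the block with another change were chosen after seeing the data. Without the block, counts over all genes moved with the library left out as well, as given with the D7 comparison. The count higher in replicate 2 was 6, and 12 with library totals, 2 without the filter and 1 with DESeq2. What these fits called over all genes is given with the replicate comparison. The count lower in all 3 pairs was 15, and 7 with FPKM plus 0.5. The causes of these shifts were not tested. For single genes, 259 values stayed on their side of the threshold, 38 passed and 24 no longer passed under an alternative, with the sign kept. Replicate 2 against 1 could not be tested with a library left out, as no residual degrees of freedom remain. Depth limits Fancf most, with 45 estimated counts in its lowest library, and the 1 library of each genotype with the D7 label limits every D7 count.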
